A study of Mus musculus with 8 samples.

Results

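The replication-independent histone variants are histones whose genes are transcribed outside S phase as well as in it, from polyadenylated messages. The 10 mouse genes described here are H3f3a, H3f3b, Cenpa, H2az1, H2az2, Macroh2a1, Macroh2a2, H2ax, H1f0 and H1f10. They were found in the count table by their Entrez gene numbers. All 10 were present among 27179 genes, and all 10 had enough counts to be tested. RNA came from the embryonic cerebral cortex of 4 wild-type embryos with the genotype Taf8 +/+ and 4 Taf8-deleted embryos with the genotype Taf8 -/lox, each library from its own embryo. TAF8 is part of TFIID, the general factor that recognises core promoters and places RNA polymerase II there. The sources used here do not give the embryonic day, the Cre driver or the cells in which it acts.

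The bulk histones are made in S phase from clustered genes whose messages end in a stem-loop in place of a poly(A) tail. Variant histones take the place of bulk histones at particular sites and times, and many of them have chaperones of their own. H3.3, encoded by both H3f3a and H3f3b, is laid down at active genes and in heterochromatin, and because neurons no longer divide, it builds up in their chromatin. CENP-A, from Cenpa, replaces H3 at centromeres. H2A.Z, from H2az1 and H2az2, flanks active start sites, macroH2A carries a large extra domain and is known from silent chromatin, and H2A.X is phosphorylated beside DNA breaks. H1.0, from H1f0, and H1.10, from H1f10, are linker histones that bind the DNA between nucleosomes, and H1.0 is known to build up in cells that stop dividing.

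Because TFIID acts at core promoters, the 250 bases before the start of transcription are shown for the H3.3 pair, whose members are compared most directly below, and for the 3 genes that were lower in Taf8-deleted cortex. The sequences are those of RefSeq on GRCm38.p6, which held 9 of the 10 members, all but H2ax, with 1 start each. For H3f3b, Macroh2a2, Macroh2a1, H2az2 and Cenpa the gene as annotated begins upstream of that start, so the windows lie wholly (H3f3b and Macroh2a2) or partly inside the gene spans given below. Counts per gene do not show which start was used in these libraries, and the motifs below hold for these windows only. Capitals mark matches on either strand to 5 motifs: the TATA box TATAAA, the CCAAT box CCAAT, the GC box GGGCGG, the cell cycle homology region TTTGAA and the E2F site GCGGGAA. The H3f3a window is chr1:180813606-180813855, minus strand, and that of H3f3b is chr11:116024505-116024754, minus strand. For Cenpa it is chr5:30666636-30666885, plus strand, for H1f0 chr15:79027962-79028211, plus strand, and for Macroh2a2 chr10:61783865-61784114, minus strand.
H3f3a: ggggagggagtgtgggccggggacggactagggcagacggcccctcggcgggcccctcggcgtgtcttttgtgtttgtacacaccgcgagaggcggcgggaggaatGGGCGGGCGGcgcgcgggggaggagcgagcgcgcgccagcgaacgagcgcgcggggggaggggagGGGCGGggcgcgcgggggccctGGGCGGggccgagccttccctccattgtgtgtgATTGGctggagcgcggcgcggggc
H3f3b: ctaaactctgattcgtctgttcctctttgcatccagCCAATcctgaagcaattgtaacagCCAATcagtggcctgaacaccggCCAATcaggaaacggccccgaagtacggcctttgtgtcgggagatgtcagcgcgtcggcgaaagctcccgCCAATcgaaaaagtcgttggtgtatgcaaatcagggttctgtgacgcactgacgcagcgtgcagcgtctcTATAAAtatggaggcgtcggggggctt
Cenpa: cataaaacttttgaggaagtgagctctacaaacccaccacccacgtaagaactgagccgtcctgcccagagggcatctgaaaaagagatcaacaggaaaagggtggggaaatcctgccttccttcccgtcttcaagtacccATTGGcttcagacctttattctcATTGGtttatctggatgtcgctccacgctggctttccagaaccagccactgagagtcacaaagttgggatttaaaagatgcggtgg
H1f0: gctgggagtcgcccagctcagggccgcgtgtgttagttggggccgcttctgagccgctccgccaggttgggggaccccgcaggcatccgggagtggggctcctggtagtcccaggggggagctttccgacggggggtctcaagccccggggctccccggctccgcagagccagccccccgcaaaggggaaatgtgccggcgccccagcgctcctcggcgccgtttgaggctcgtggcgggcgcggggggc
Macroh2a2: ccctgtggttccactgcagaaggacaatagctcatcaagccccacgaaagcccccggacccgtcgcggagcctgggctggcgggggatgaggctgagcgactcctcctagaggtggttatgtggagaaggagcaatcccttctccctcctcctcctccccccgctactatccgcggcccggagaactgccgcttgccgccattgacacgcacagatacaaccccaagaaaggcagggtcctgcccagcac

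The pair of H3.3 genes had unlike promoter windows. The H3f3b window held TATAAA 27 to 22 bases before the start, and 4 CCAAT boxes that began 214, 190, 167 and 97 bases before it. The H3f3a window held no TATAAA, 1 CCAAT box on the minus strand 24 to 20 bases before the start, and 4 GC boxes, of which those at 144 and 140 bases overlap. The H3f3a window was 77.2% G and C with 35 CpG, and the H3f3b window was 54.0% with 19 CpG, beside medians of 52.0% and 6 CpG over all 27025 promoters. Cenpa held 2 CCAAT boxes on the minus strand, and the windows of H1f0 and Macroh2a2 held none of the 5 motifs. H2az1 and H2az2 held 2 and 4 CCAAT boxes and a GC box each, and H2az2 also held TTTGAA on the minus strand. Macroh2a1 and H1f10 held GC boxes only. Over all promoters, taking the first listed for each gene, windows of the same length held TATAAA in 12.97%, CCAAT in 34.46%, GGGCGG in 32.94%, TTTGAA in 16.27% and GCGGGAA in 3.84%. A TATAAA on the plus strand that began 40 to 20 bases before the start stood in 2.22% of all promoters, and H3f3b was the only one of the 9 members with one. Among tested genes with a promoter entry, it stood in 67 of 3537 (1.89%) that were higher in Taf8-deleted cortex. It stood in 27 of 3557 (0.759%) that were lower and 49 of 4746 (1.03%) that did not pass the test. The 2.22% also covers genes too low to test, so these shares are not measured against it. In the replication-dependent histone genes it stood in 12 of 59, and those that were tested are also counted in the shares by call. These matches are descriptions of letters, not of bound sites, and the part of any motif in a member's result was not tested.

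H2ax differs from the other members at the other end of its message. Its transcript holds the histone stem-loop of the replication-dependent genes, found by a search for the letters of its stem and loop, and the gene is known to make a polyadenylated message as well. The element lies at chr9:44335240-44335255 on the plus strand of GRCm38, 547 bases into a transcript of 1384 bases, and is shown with its flanks, the stem-loop in capitals.
H2ax: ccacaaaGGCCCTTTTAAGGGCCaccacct
The same search found a stem-loop in 43 of 64 replication-dependent histone genes, 92 of 20645 genes in all, and 0 of the other 9 members. Libraries made from poly(A) RNA sample the stem-loop form only in part.

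The libraries held 26312505 to 65523487 counts in genes, and levels are CPM, counts relative to the size of the library, on library sizes scaled by edgeR's TMM method, as means ± SD with n = 4 embryos. Taf8 itself, the check of the labels, stood at 38.5, 35.0, 32.0 and 33.7 CPM in the wild-type libraries and at 0.791, 0.747, 0.486 and 0.547 CPM in the deleted ones. Its log2 fold change was -5.75 (SE 0.12, adjusted p = 1.45e-09 by edgeR's quasi-likelihood test). Of the markers fixed for the tissue, 12 of 12 neuron, 10 of 10 radial glia and 6 of 6 intermediate progenitor genes were expressed, so markers of the labelled tissue were present. Wild-type replicate 3 stood apart from the other wild-type libraries for several members, and results that rest on it are given with and without it. Wild-type replicates 1 to 3 have animal numbers with a shared first part, 408.4, 408.5 and 408.6, and wild-type replicate 4 has 409.2. The deleted libraries have 456.1, 472.1, 477.1 and 486.1, with no shared first part. No first part occurs in both groups, so a litter or batch that it marks and the genotype cannot be told apart. The p-values measure the spread between these embryos. If the first part marks a litter, the wild-type spread lies mostly within a litter and the deleted spread lies between litters.

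Across the family, 2 genes were higher in Taf8-deleted cortex (H3f3b and H2ax), 3 were lower (Cenpa, Macroh2a2 and H1f0), and 5 did not pass the test (H3f3a, H2az1, H2az2, Macroh2a1 and H1f10). Called here means an adjusted p under 0.05 by edgeR's quasi-likelihood test over 15649 genes. Of all genes tested, 59.2% were called, 29.5% higher and 29.6% lower, so the family's share of 5 in 10 is near the background. The groups did not overlap in those same 5 members, beside 53.6% of all genes. The median log2 fold change was -0.06 over the 10 members and 0.01 over all genes, and the median size without sign was 0.31 and 0.27. The variants therefore did not move as one group, and the sections below take them by role.

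**Figure D1:**
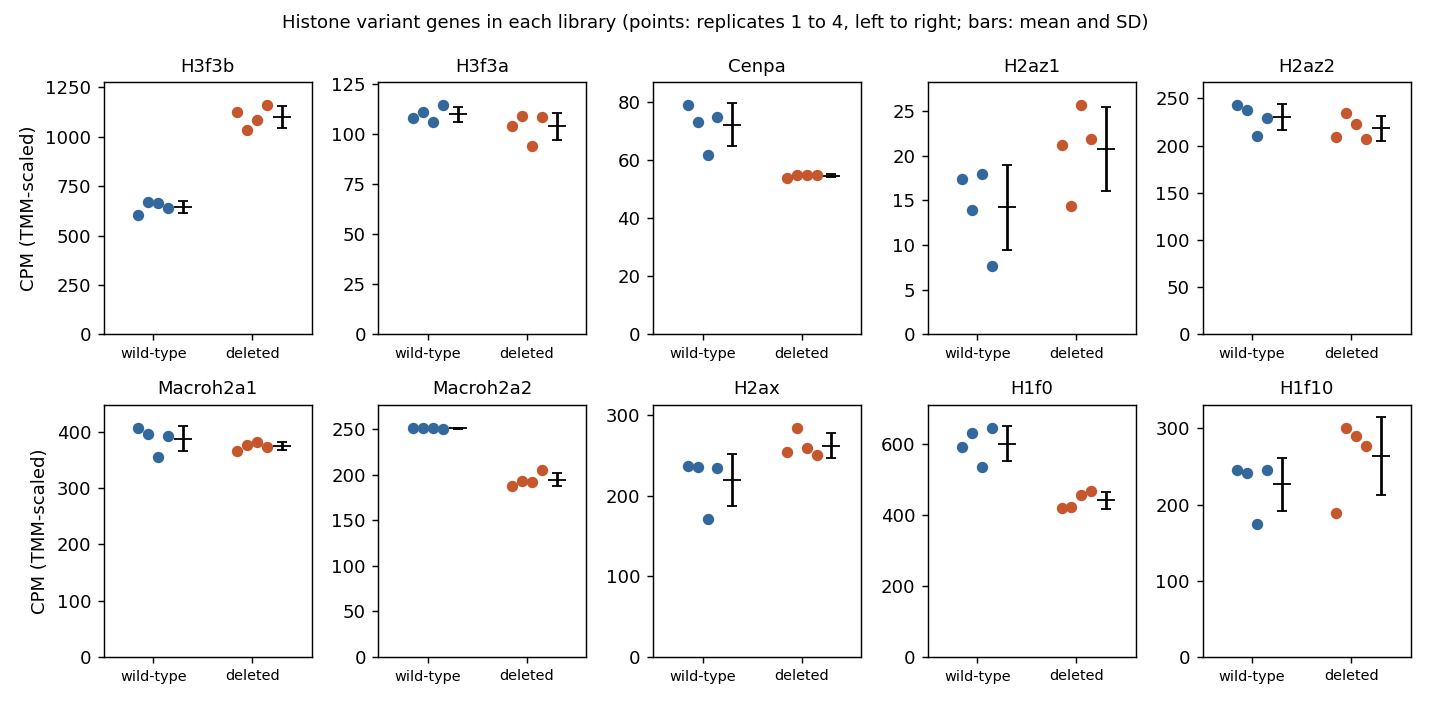
Level of each of the 10 variant histone genes (y axis, TMM-scaled CPM) in the 4 wild-type and 4 Taf8-deleted libraries, with the group mean ± SD; each point is 1 embryo. H3f3b lies at 604 to 671 CPM in wild-type and 1031 to 1158 CPM in Taf8-deleted cortex, while the groups of its partner H3f3a overlap.

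H3f3b (Entrez gene 15081, chromosome 11, 116021961 to 116026039, minus strand), which encodes H3.3, showed the largest difference of the family. Its level was 604, 671, 667 and 639 CPM in the wild-type libraries and 1125, 1031, 1086 and 1158 CPM in the deleted ones. Every deleted library lay above every wild-type one. The means were 645 ± 30.8 and 1100 ± 54.8 CPM, a rise of 1.70-fold (log2 fold change 0.77, SE 0.05, adjusted p = 4.56e-07 by edgeR's quasi-likelihood test). H3f3a (Entrez gene 15078, chromosome 1, 180802560 to 180813605, minus strand) encodes the same protein. It stood at 108, 111, 106 and 114 CPM in wild-type and 104, 109, 93.9 and 108 CPM in deleted cortex, and the groups overlap. Its log2 fold change was -0.08, with an interval of -0.18 to 0.02 at 2 SE (edgeR adjusted p = 0.202), so a rise as large as that of H3f3b lies outside the interval.

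The change of balance within the H3.3 pair was tested on the ratio of their counts in each library, which needs no scaling. The log2 ratio of H3f3a to H3f3b was -2.48, -2.60, -2.66 and -2.48 in the wild-type libraries and -3.43, -3.24, -3.53 and -3.42 in the deleted ones. H3f3b thus had 5.88 times the counts of H3f3a in wild-type cortex and 10.6 times in Taf8-deleted cortex. The mean difference was -0.85 (exact two-sided permutation test, p = 0.0286, the smallest that 70 splits allow, adjusted p = 0.0381 over 4 pairs of genes). Short stretches of both messages also occur in other genes: of windows as long as a read, 7.82% of those of H3f3a and 3.53% of those of H3f3b are shared, mostly with pseudogenes. One such copy of H3f3b, Gm6485, was counted at 12.3 ± 1.48 and 18.7 ± 1.89 CPM. It was higher too (log2 fold change 0.61, SE 0.10, edgeR adjusted p = 0.000437), and whether reads of H3f3b were counted to it was not tested.

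**Figure D2:**
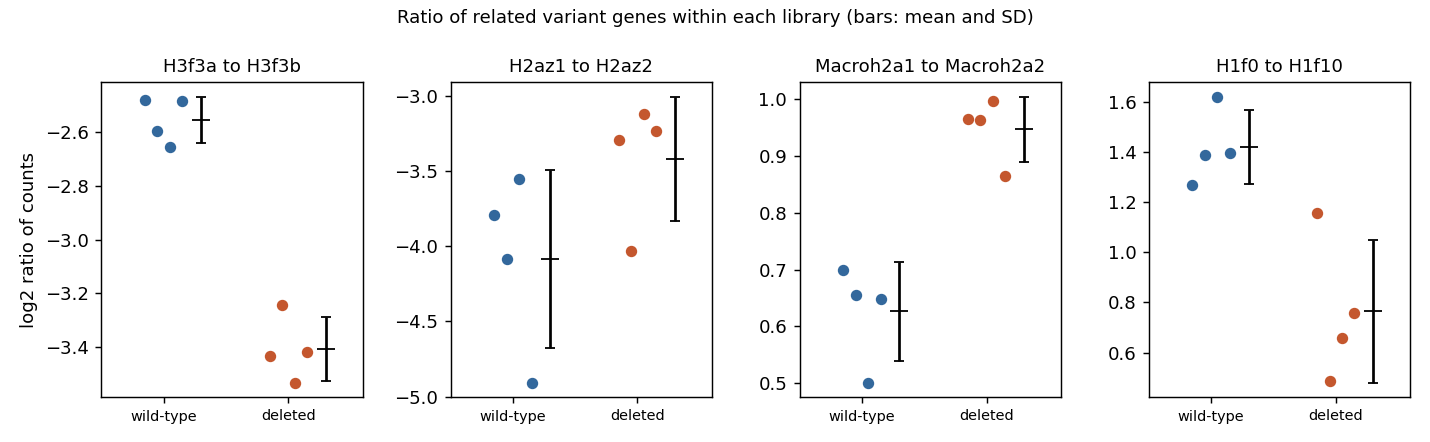
Log2 ratio of counts (y axis) within each of 4 pairs of related variant genes, by library; points are embryos, and bars are the group mean ± SD. The groups lie apart for H3f3a to H3f3b, Macroh2a1 to Macroh2a2 and H1f0 to H1f10, and overlap for H2az1 to H2az2.

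The 8 genes that carry H3.3 to chromatin mostly did not pass the test. HIRA, UBN1, UBN2 and CABIN1 form or bind the HIRA complex, ASF1A hands histones to it, and DAXX with ATRX deposits H3.3 in heterochromatin. Of the 8, 2 were higher and 0 were lower, beside 29.5% and 29.6% of all genes, with a median log2 fold change of -0.01. Cabin1 rose from 147 ± 8.19 to 196 ± 6.94 CPM (log2 fold change 0.42, SE 0.05, edgeR adjusted p = 3.62e-05). Ubn1 rose from 121 ± 2.54 to 149 ± 3.4 CPM (log2 fold change 0.30, SE 0.04, edgeR adjusted p = 4.14e-05). Atrx and Daxx had log2 fold changes of -0.25 and -0.12 that missed the threshold (edgeR adjusted p = 0.0502 and 0.0732), and they are the 2 of the list below 0 with an unadjusted p under 0.05. DESeq2 called 1 of the 8 lower, and Hira was at -0.01 by edgeR.

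Cenpa (Entrez gene 12615, chromosome 5, 30666877 to 30674837, plus strand), the centromeric H3, moved the other way from H3f3b. It stood at 79.0, 73.3, 61.7 and 75.0 CPM in wild-type cortex and at 53.9, 54.9, 54.8 and 55.1 CPM in deleted cortex. The 4 deleted libraries lay close together and below all wild-type ones, of which replicate 3 was the lowest. Cenpa fell from 72.3 ± 7.41 to 54.7 ± 0.541 CPM, 1.32-fold lower (log2 fold change -0.40, SE 0.07, edgeR adjusted p = 0.000466), and without wild-type replicate 3 the log2 fold change was -0.47. CENP-A is known to be made mainly in G2 of the cell cycle, so markers of dividing cells are given beside it. Of 12 markers of G2 and mitosis 6 were lower, 0 higher and 6 not called, with a median of -0.15. Their summed level was 1719 to 2016 CPM in wild-type and 1699 to 1736 CPM in deleted cortex, which overlap, with none at 0, and the lowest wild-type sum was that of replicate 3. Ube2c, which drives the destruction of mitotic cyclins, fell from 114 ± 15.2 to 62.4 ± 2.62 CPM, and Cdk1, the mitotic kinase, from 116 ± 12.5 to 93.4 ± 3.42 CPM (edgeR adjusted p = 1.39e-05 and 0.0032). Of 16 S phase markers 7 were lower and 1 higher, with a median of -0.17 and sums of 1401 to 1796 and 1375 to 1521 CPM. For both lists the share of all genes was 29.6% lower and 29.5% higher. Gins1, part of the replicative helicase, was 2.06-fold lower, and Tyms, which makes thymidylate, 1.21-fold lower. The part of these markers in the Cenpa result was not tested, and in bulk RNA fewer cells of a type and less RNA per cell cannot be told apart.

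Genes that deposit CENP-A or sit beside it at the centromere were split in direction. Of 22, 4 were higher and 9 lower, beside 29.5% and 29.6% of all genes, with a median log2 fold change of -0.11. Cenpt, which links the centromere to the kinetochore, rose from 51.2 ± 2.07 to 74.0 ± 2.94 CPM (log2 fold change 0.53, edgeR adjusted p = 3.91e-06). Itgb3bp and Cenpk, which also encode inner kinetochore proteins, rose by 0.67 and 0.48 on the log2 scale. Cenpn, whose protein binds the CENP-A nucleosome, fell from 22 ± 2.73 to 15.1 ± 0.448 CPM (log2 fold change -0.54, edgeR adjusted p = 0.000345). Hjurp, the CENP-A chaperone, had a log2 fold change of -0.13 that did not pass the test (edgeR adjusted p = 0.108).

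**Figure D3:**
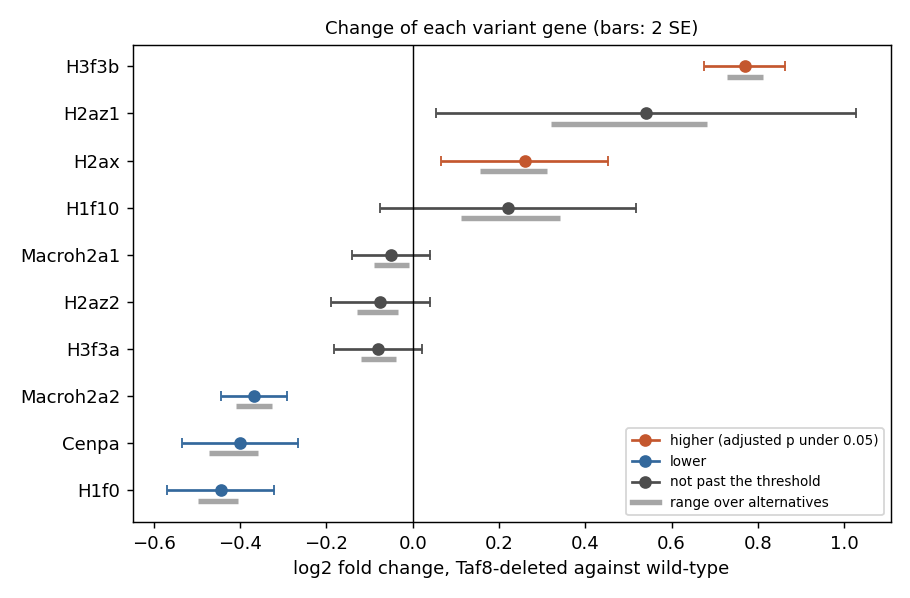
Log2 fold change of the 10 members, deleted minus wild-type (x axis), with bars of 2 SE and, in grey, the range over the 19 alternatives; orange and blue mark members called higher and lower by edgeR, and dark grey those not called. H3f3b stands farthest to the right at 0.77, and H1f0 farthest to the left at -0.44.

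Both H2A.Z genes stayed below the threshold. H2az2 (Entrez gene 77605, chromosome 11, 6427226 to 6444511, minus strand) stood at 243, 237, 211 and 230 CPM in wild-type and 209, 235, 223 and 207 CPM in deleted cortex, and the groups overlap. Its log2 fold change was -0.08 with an interval of -0.19 to 0.04 at 2 SE (edgeR adjusted p = 0.279). H2az1 (Entrez gene 51788, chromosome 3, 137864487 to 137866922, plus strand) was counted at 17.5, 14.0, 17.9 and 7.65 CPM in wild-type and 21.3, 14.3, 25.7 and 21.9 CPM in deleted cortex. These groups overlap too, and wild-type replicate 4 was the lowest. The log2 fold change was 0.54 with an interval of 0.05 to 1.03 at 2 SE (edgeR adjusted p = 0.0776). It passed when wild-type replicate 3 or deleted replicate 2 was left out (0.68 and 0.66, edgeR adjusted p = 0.0374 and 0.0391) and was 0.32 without wild-type replicate 4. The ratio of H2az1 to H2az2 differed by 0.66 on the log2 scale (exact two-sided permutation test, p = 0.0857, adjusted p = 0.0857 over 4 pairs).

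The counts of H2az1 are uncertain. It had 291 to 1161 counts per library, and 52.1% of its windows as long as a read also occur in transcripts of other genes. Nearly all of these, 51.5% of the windows, occur in a transcript of Tmcc1, which was counted at 107 ± 3.83 and 105 ± 3.67 CPM (log2 fold change -0.04, edgeR adjusted p = 0.463). Some, 26.8% of the windows, occur in Gm8203, a processed copy of H2az1, which was counted at 211 ± 17.1 CPM in wild-type and 249.9 ± 4.53 CPM in deleted cortex. Gm8203 was higher by 0.25 on the log2 scale (SE 0.06, edgeR adjusted p = 0.0034). The sources used here do not say how reads that match several genes were assigned, so the level of H2az1 and its place among the members are uncertain.

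The machinery that puts H2A.Z in and takes it out was more often lower than higher. Of 23 genes of the SRCAP, TIP60 and INO80 complexes and the H2A.Z chaperone Anp32e, 10 were lower and 4 higher, with a median of -0.08, beside 29.6% and 29.5% of all genes. Yeats4, a reader of acetylated histones in SRCAP and TIP60, fell from 122 ± 4.37 to 52.8 ± 2.94 CPM, 2.31-fold lower (edgeR adjusted p = 3.98e-08). Brd8, a bromodomain subunit of TIP60, fell from 157 ± 5.92 to 99.6 ± 1.79 CPM (edgeR adjusted p = 3.96e-07). Kat5, the acetyltransferase of that complex, fell from 75.2 ± 3.79 to 46.5 ± 2.44 CPM (edgeR adjusted p = 1.6e-06). Actr8, an actin-related subunit of INO80, was 1.31-fold lower. In the other direction, Anp32e rose from 350.0 ± 6.70 to 468 ± 25.9 CPM (log2 fold change 0.42, edgeR adjusted p = 1.75e-05). Ep400, the ATPase of the TIP60 complex, rose from 282 ± 13.2 to 369 ± 28.3 CPM (log2 fold change 0.39, edgeR adjusted p = 0.000228).

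The macroH2A genes differed from each other. Macroh2a2 (Entrez gene 404634, chromosome 10, 61738640 to 61784604, minus strand) stood at 251, 251, 252 and 249.9 CPM in the wild-type libraries and at 188, 193, 192 and 205 CPM in the deleted ones. The wild-type values were nearly identical, and every deleted value lay below them. Macroh2a2 fell from 251 ± 0.745 to 194 ± 7.33 CPM, 1.29-fold lower (log2 fold change -0.37, SE 0.04, edgeR adjusted p = 1.56e-05). Macroh2a1 (Entrez gene 26914, chromosome 13, 56073622 to 56135626, minus strand) had 408, 396, 356 and 392 CPM in wild-type and 366, 377, 383 and 373 CPM in deleted cortex, with overlap. Its log2 fold change was -0.05, with an interval of -0.14 to 0.04 at 2 SE (edgeR adjusted p = 0.360). Without wild-type replicate 3 it was -0.09 and passed (edgeR adjusted p = 0.0426). The log2 ratio of Macroh2a1 to Macroh2a2 went from 0.63 ± 0.09 to 0.95 ± 0.06, a difference of 0.32 (exact two-sided permutation test, p = 0.0286, adjusted p = 0.0381 over 4 pairs).

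H2ax (Entrez gene 15270, chromosome 9, 44334715 to 44336077, plus strand, a gene of 1 exon), which encodes H2A.X, was higher by a small margin. It stood at 237, 235, 171 and 234 CPM in wild-type and at 255, 284, 259 and 250.3 CPM in deleted cortex. The groups do not overlap, and wild-type replicate 3 lay far below the other wild-type libraries. The means were 219 ± 32.2 and 262 ± 15.3 CPM, 1.2-fold higher (log2 fold change 0.26, SE 0.10, edgeR adjusted p = 0.0387). Without wild-type replicate 3 the log2 fold change was 0.16 and still passed (edgeR adjusted p = 0.0164). The call was lost without wild-type replicate 2 or any 1 of the deleted libraries (edgeR adjusted p = 0.0542 to 0.122) and in a test against a 1.2-fold change. Against the other wild-type libraries, replicate 3 differed by -0.46 for H2ax, beyond the 5th percentile of all genes at -0.41. The message of H2ax is 62.3% G and C, and in wild-type replicate 3 the median deviation of genes with at least 60% was -0.12, beside 0.13 for genes under 45%. With the correction for base composition, added after seeing the data, the log2 fold change of H2ax was 0.31 (edgeR adjusted p = 0.00148). The part of the cell cycle markers, which were also low in this library, was not tested. Of the H2ax windows as long as a read, 2.84% also occur in 20 other genes, among them replication-dependent H2A genes. The summed level of that class, given below, was higher in deleted cortex. The sources used here do not say how such reads were assigned, and their part in the H2ax result was not tested.

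Genes that act with H2A.X at DNA breaks went both ways, with a median log2 fold change of 0.01. In this list 4 were higher and 4 lower of 16, beside 29.5% and 29.6% of all genes. Prkdc, a kinase that phosphorylates H2A.X, rose from 42.8 ± 2.03 to 80.4 ± 10.1 CPM, 1.88-fold (edgeR adjusted p = 5.82e-06). Nbn and Rad50, partners in the complex that binds broken ends, differed in direction, with log2 fold changes of -0.35 and 0.35. Eya4, of the family that removes the phosphate from a tyrosine of H2A.X, fell from 10.7 ± 0.576 to 6.39 ± 0.478 CPM (edgeR adjusted p = 2.18e-05).

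The linker histone genes H1f0 and H1f10 also separated. H1f0 (Entrez gene 14958, chromosome 15, 79028212 to 79030504, plus strand, 1 exon) stood at 591, 631, 536 and 647 CPM in wild-type and at 421, 422, 456 and 467 CPM in deleted cortex. All deleted libraries lay below all wild-type ones. H1f0 fell from 601 ± 49.7 to 442 ± 23.7 CPM, 1.36-fold lower (log2 fold change -0.44, SE 0.06, edgeR adjusted p = 0.000131), the largest fall of the family. H1f10 (Entrez gene 243529, chromosome 6, 87980421 to 87981482, minus strand, 1 exon) stood at 245, 241, 174 and 246 CPM in wild-type and at 189, 301, 289 and 276 CPM in deleted cortex. The groups overlap because deleted replicate 1 is low, as is wild-type replicate 3. Its log2 fold change was 0.22 with an interval of -0.08 to 0.52 at 2 SE (edgeR adjusted p = 0.225). It passed as higher without deleted replicate 1 (0.34, edgeR adjusted p = 0.0223) and was 0.11 without wild-type replicate 3. H1f10 has the most G and C of the members, 71.3% of its message, and with a correction for base composition, added after seeing the data, it passed (0.28, edgeR adjusted p = 0.038). The log2 ratio of H1f0 to H1f10 went from 1.42 ± 0.15 to 0.76 ± 0.28, a difference of -0.65 (exact two-sided permutation test, p = 0.0286, adjusted p = 0.0381 over 4 pairs). The groups came nearest at 1.16 in deleted replicate 1 and 1.27 in wild-type replicate 1. The message of H1f0 is 52.1% G and C, and this ratio was not corrected for base composition. Gm5577, on the opposite strand and sharing 213 bases with the exon of H1f10, rose from 9.34 ± 0.791 to 20.8 ± 2.15 CPM (edgeR adjusted p = 2.2e-06), and the sources used here do not say how strand was set in the counting. Exons of H3f3a, Macroh2a1, Macroh2a2, H2ax and H1f0 share 141 to 638 bases with genes on the opposite strand, with the same limit.

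Markers of cell types also differed between the groups. Of 12 neuron markers 11 were lower and 0 higher, with a median of -0.42, beside 29.6% lower and 29.5% higher of all genes. The summed level of the neuron markers was 6436 to 7801 CPM in wild-type and 4847 to 5449 CPM in deleted cortex. Syn1 and Neurod2, a synaptic vesicle gene and a neuronal transcription factor, fell 1.56-fold and 1.78-fold. All 6 interneuron markers were lower, with a median of -0.46 and sums of 835 to 958 and 628 to 638 CPM, among them Gad2 and Lhx6 (2.28-fold and 2.09-fold lower). Radial glia markers were 6 higher and 3 lower of 10, with sums of 2723 to 2952 and 3374 to 3696 CPM. In that list Nes, a filament gene of neural progenitors, rose from 515 ± 42.2 to 979 ± 34.9 CPM, while Fabp7 fell from 480 ± 5.56 to 336 ± 27.3 CPM. Intermediate progenitor markers were 4 higher and 1 lower of 6, with sums of 762 to 923 and 1018 to 1115 CPM, and Dll1 and Gadd45g rose 1.99-fold and 1.62-fold. The lower one was Eomes, which fell from 276 ± 13.0 to 234 ± 13.2 CPM (log2 fold change -0.24, edgeR adjusted p = 0.00223). The part of these cell types in any member's result was not tested.

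**Figure D4:**
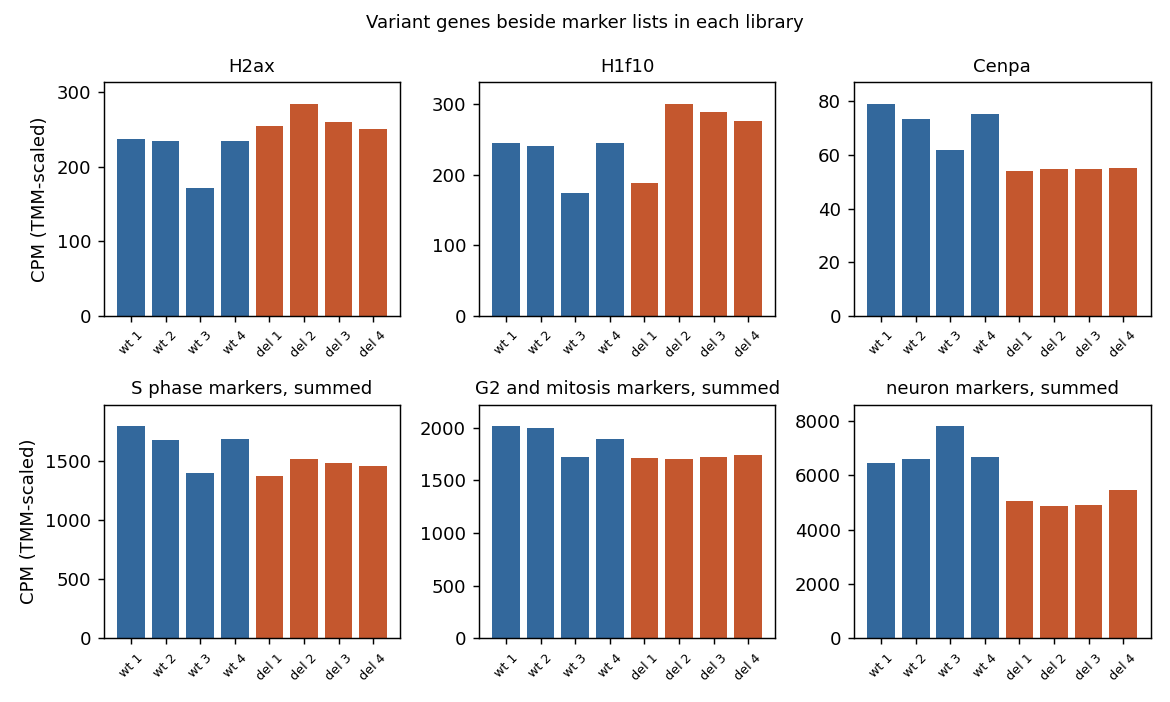
Levels of H2ax, H1f10 and Cenpa (upper row) and summed levels of the S phase, G2 and mitosis, and neuron markers (lower row) in each library (y axis, TMM-scaled CPM, from 0); each bar is 1 embryo, wild-type in blue and Taf8-deleted in orange. Wild-type replicate 3 is the lowest wild-type library in all but the neuron panel, where it is the highest at 7801 CPM.

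Markers of other cell types are given with their sums in wild-type and deleted cortex, beside 29.5% higher and 29.6% lower of all genes. All 10 endothelial and pericyte markers were higher, including Vtn and Rgs5 (sums 197 to 212 and 240 to 306 CPM), and of 9 meningeal fibroblast markers 6 were higher, including Crabp2 and Col1a2 (21.3 to 46.1 and 35.0 to 146 CPM). Microglia markers, with C1qb and C1qc leading, were 4 higher and 1 lower of 8 (39.6 to 45 and 43.8 to 59.0 CPM). The lower one was Cx3cr1 (log2 fold change -0.38, edgeR adjusted p = 0.00183). Red blood cell markers, with Hba-a1 and Hbb-bs leading, were 5 higher of 8 (259 to 337 and 349 to 471 CPM). Choroid plexus markers, such as Otx2 and Folr1, passed in 0 of 5 by edgeR, with an unadjusted p under 0.05 in 1, and their sums ranged from 14.9 to 405 and from 13.5 to 1207 CPM. No marker of any list was at 0 in the libraries as a whole, and the part of these cells in the results was not tested.

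Levels of different genes can be set side by side only per length. In wild-type cortex the order, in CPM per kb of the counted gene length, was H3f3b 324, H1f0 262, H1f10 213, Macroh2a1 189, H2ax 161, H2az2 141, Macroh2a2 131, H3f3a 102, Cenpa 54.0 and H2az1 14.9. H1f10 and Macroh2a1, Macroh2a1 and H2ax, H2ax and H2az2, and H2az2 and Macroh2a2 overlap as neighbours in their ranges over libraries, and the other neighbours lie apart. In deleted cortex H3f3b stood first at 552 CPM per kb, and H1f10 at 248.6 and H1f0 at 193 had changed places. H2ax at 192 stood above Macroh2a1 at 182. Within both pairs the ranges over the deleted libraries overlap, so the order within deleted cortex is not settled. In wild-type cortex the ranges of H1f0 and H1f10 lay apart, and their log2 ratio separated the groups, as given above. For H2ax and Macroh2a1 the ranges overlap in wild-type cortex as well. The other 5 kept their order, from H2az2 at 133 to H2az1 at 21.7. H2az1 is last in both groups, with the limit on its counts given above.

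The summed level of the 10 members was 2757 ± 141 CPM in wild-type and 3034 ± 80.0 CPM in deleted cortex, and the rise of H3f3b alone was larger than that of the sum. Within each class the variants were set beside the replication-dependent genes, as a description, since poly(A) RNA holds those messages only in part. The H3 members H3f3a, H3f3b and Cenpa together went from 827 ± 26.5 to 1258 ± 55.6 CPM, and the 12 replication-dependent H3 genes from 8.24 ± 0.719 to 24.0 ± 1.81 CPM. The variants thus held 99.0% and 98.1% of H3 counts. The 5 H2A members went from 1102 ± 65.8 to 1070 ± 28.6 CPM beside 130 ± 9.69 and 377 ± 19.7 CPM for 18 replication-dependent genes, so their share of H2A counts was 89.5% and 74.0%. The 2 linker members went from 828 ± 82.1 to 706 ± 64.4 CPM beside 17.0 ± 2.07 and 106 ± 2.90 CPM for 5 genes, and held 98.0% and 86.9% of H1 counts. In H1 and H2A the share of the variants separated the groups completely and was the lower one in deleted cortex, with the rise on the replication-dependent side. In H3 the shares lay apart as well, but both sides were higher in deleted cortex.

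**Figure D5:**
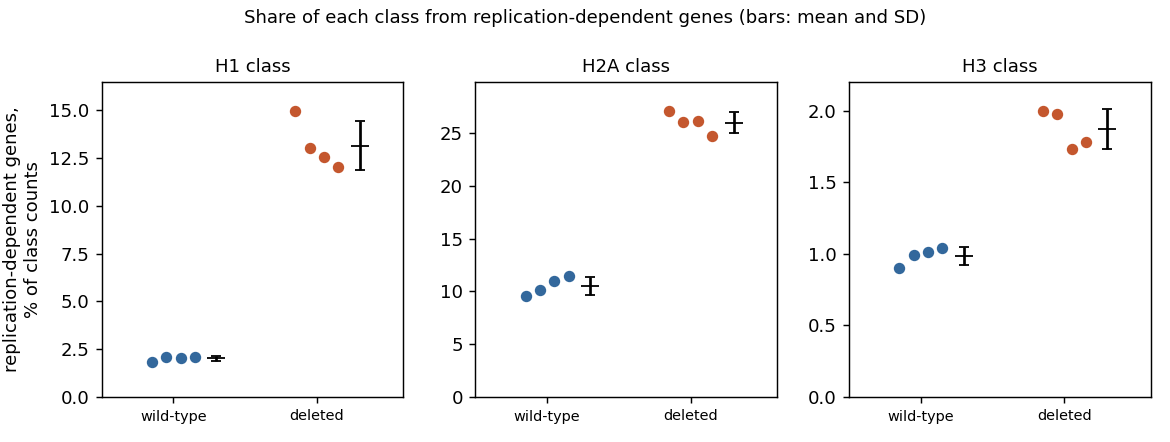
Share of each histone class's counts (y axis, percent) that came from replication-dependent genes, by library, for H1, H2A and H3; points are embryos, and bars are the mean ± SD. Mean shares are 2.01% and 13.1% for H1, 10.5% and 26.0% for H2A, and 0.985% and 1.87% for H3, in wild-type and Taf8-deleted cortex.

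General histone chaperones, which serve bulk and variant histones alike, were 4 higher and 7 lower of 15, beside 29.5% and 29.6% of all genes. The median log2 fold change of this list was -0.10. Ssrp1, a subunit of FACT, which opens nucleosomes ahead of polymerases, fell from 401 ± 14.5 to 316 ± 9.9 CPM (edgeR adjusted p = 3.82e-05), and Nap1l1, a carrier of H2A and H2B, fell by 0.27 on the log2 scale. Ptma, a small acidic protein that binds H1, rose by 0.44, and Ipo4, an importin of histones, by 0.29. Of 15 further variant histone genes, most of them known from testis, 12 were in the table, 7 of these had 0 counts in every library, and 1 had enough counts to be tested. That gene, H2aj, an H2A variant, rose from 38.9 ± 4.18 to 55 ± 2.51 CPM (log2 fold change 0.50, edgeR adjusted p = 0.000188).

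The genes whose level ran most like that of H3f3b over the 8 libraries were Taf13, 4632427E13Rik and Dkkl1, with Pearson correlations of log2 CPM of 0.999, 0.998 and 0.998. For H1f0 they were Dcp1b, Insm1 and Oat, at 0.989, 0.985 and 0.984. Such values mostly follow the gap between the groups, since 1015 genes reached 0.95 with H3f3b and 389 with H1f0, and they are given as a description.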

How the data were processed

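RNA was isolated with a column kit and made into stranded poly(A) libraries, per the labels' protocols. The authors deposited raw read counts per Entrez gene, made with Subread 1.5.0 and featureCounts on mm10, per the submitters' processing notes. The annotation, strand setting and handling of reads with several matches are not stated in those sources.

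Symbols came from RefSeq for 25275 genes and GENCODE for 18, and 1886 had none. Within-group library pairs differed by more than sampling noise (chi-square per degree of freedom 3.70 to 28.4). Total counts of 26312505 to 65523487 make 3 counts equal to 0.0458 to 0.114 CPM, for counting error only.

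Groups, taken from the labels, were tested by the quasi-likelihood F-test of edgeR 4.0.16 (R 4.3.3, TMM, filterByExpr), adjusted by Benjamini-Hochberg over 15649 genes at 0.05, and the steps were tested on simulated data. The SE is the log2 fold change over the square root of F. Ratios of paralogs used an exact permutation test in scipy 1.17.1 with 0.5 added to each count. Windows shared with other transcripts were as long as the reads.

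The members and lists were chosen with earlier results of these data known. Named are all members, Taf8, up to 4 genes of each list and 2 of each marker list by smallest adjusted p, and the 3 genes most like H3f3b and H1f0. Hjurp, Hira, Anp32e, Ep400, Eomes, Cx3cr1 and the copies or overlapping genes were chosen after their values were seen. Alternatives were other scalings and filters, DESeq2 1.42.0, voom in limma 3.58.1, a replicate block, a 1.2-fold test, a threshold of 0.01 and leaving out each library. A correction for base composition was added after seeing the data.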

Additional observations from a re-analysis of the deposited data

Results flagged for a closer look

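In 122 groups of 4 libraries of named genes, 9 had 1 library whose gap to the nearest other passed Dixon's 95% critical value, where chance alone gives about 1 in 20. Among the members, H2ax was at 170.8 CPM in wild-type replicate 3 and at 234 to 237 CPM in the other wild-type libraries. H1f10 was at 174 CPM in the same library and at 241 to 246 CPM in the others. Both mitotic genes named in the report stood low there too: Ube2c at 91.1 CPM beside 119.8 to 123 CPM, and Cdk1 at 97.8 CPM beside 120.3 to 124 CPM.

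The other 5 concern cell type markers. Syn1 was at 63.1 CPM in deleted replicate 4, beside 60.1 to 60.4 CPM. Crabp2 was at 19.8 CPM in deleted replicate 2, beside 16.2 to 16.6 CPM. Otx2 was at 22 CPM in deleted replicate 1, beside 12.0 to 13.4 CPM. Folr1 was at 3.94 CPM in wild-type replicate 4, beside 0.332 to 0.449 CPM. Hba-a1 was at 53.0 CPM in deleted replicate 4, beside 72.5 to 76.2 CPM.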

How the results depend on the processing

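H3f3b, H1f0, Cenpa and Macroh2a2 kept their direction and call in all 19 alternatives, and no member changed direction. H2ax lost its call in the 1.2-fold test and at 0.01, so 1 member was higher there, and leaving out libraries gave 1 to 3 higher and 3 to 4 lower members. In the 1.2-fold test the lists gave 1 higher for H3.3 deposition, 2 higher and 6 lower for H2A.Z exchange, 2 lower for CENP-A, 1 higher for H2AX signalling, and 1 higher and 2 lower for general chaperones, since that test asks for more than a difference from 0. For CENP-A, library size alone gave 7 higher, the threshold of 0.01 gave 5 lower, and leaving out libraries gave 7 to 11 lower. H3.3 deposition, with 0 lower in the report, had 1 lower with size factors, without a filter and with DESeq2, 3 with the correction for base composition, and 0 to 3 with libraries left out. The cause was not tested. Counted per length, the variant share changed by -1.83 points in H3 and -14.3 in H2A, beside -0.886 and -15.5 as deposited.

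The replicate numbers do not pair the embryos: deviations of same-numbered libraries correlated at -0.46 to 0.014. With the replicate block H3f3b had a log2 fold change of 0.77, and the block changed 0 member calls, and over 4 pairs of libraries no ratio could reach 0.05. Among the members, H2az1 had the lowest counts, 291 to 1161 per library.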
